A study of Mus musculus with 3 samples.

Results

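The genes described here are the 5 laminin α chains Lama1 to Lama5, the β chains Lamb1 and Lamb2, the γ chain Lamc1, and the partners Hspg2 (perlecan) and Nid1 (nidogen-1). They were taken by symbol from the deposited gene list, and all 10 were found among its 32285 genes. Single cells of the mouse soft palate, dissected from the back of the palate, were captured at embryonic day E14.5 in 2 control libraries and 1 mutant library, all of the C57BL/6 strain. The mutant library, labelled Osr2-Cre;Alk5fl/fl, carries 2 floxed alleles of Tgfbr1 (Alk5), the type 1 receptor for TGF-β, and a Cre driven from Osr2 that acts in palatal mesenchyme and not in myogenic cells; per the study's figure legends, controls were Tgfbr1 fl/fl or fl/+. Whether a library pooled embryos is not given in the sources used here. The labels name separate control samples but not separate litters. The fits held a library term, so p-values measure how far differences between cell types varied among these 3 libraries. That variation may be technical.

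Laminins are cross-shaped secreted proteins of the basement membrane, each built inside the cell from 1 α, 1 β and 1 γ chain. The α chain carries the main site that cell receptors bind, so the α chain a cell makes sets much of what its laminin can do. Nidogen links the laminin sheet to the collagen IV sheet, and perlecan is a heparan sulfate proteoglycan of the same layer. In muscle the α2 chain is the main laminin chain of the fibre's sheath, in vessels α4 and α5 are the known chains, and under surface epithelia α3 and α5 are.

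Lamb1 and Nid1 are the 2 genes called higher in perimysial cells, and Lama5 is, with Lama3, 1 of the 2 α chains that set epithelial cells apart. For Lamb1, Nid1 and Lama5, 190 bases before the start of each are shown (bases -250 to -61 from the RefSeq start, GRCm38.p6, gene strand, 5′ to 3′). The Lamb1 stretch is chr12:31265043-31265232 on the plus strand, the Nid1 stretch chr13:13437352-13437541 on the plus strand and the Lama5 stretch chr2:180225920-180226109 on the minus strand; none overlaps a gene of the GENCODE annotation. Capitals mark GGGCGG (the GC box) or CAGAC (the core of the SMAD-binding CAGA box) on either strand, and no match overlapped another.
Lamb1: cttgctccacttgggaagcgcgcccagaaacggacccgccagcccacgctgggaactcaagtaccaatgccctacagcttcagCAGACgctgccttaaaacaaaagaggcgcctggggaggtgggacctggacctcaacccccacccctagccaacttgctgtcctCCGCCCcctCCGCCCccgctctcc
Nid1: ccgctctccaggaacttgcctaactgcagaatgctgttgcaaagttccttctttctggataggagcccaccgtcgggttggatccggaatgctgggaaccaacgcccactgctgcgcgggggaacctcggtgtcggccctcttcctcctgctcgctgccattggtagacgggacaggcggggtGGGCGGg
Lama5: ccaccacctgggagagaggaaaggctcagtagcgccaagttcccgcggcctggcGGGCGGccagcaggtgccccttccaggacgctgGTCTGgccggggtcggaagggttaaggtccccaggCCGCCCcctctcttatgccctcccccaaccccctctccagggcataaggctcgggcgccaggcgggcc
The RefSeq table held such a stretch for 6 of the 10 genes (Lama2, Lama5, Lamb1, Lamb2, Hspg2 and Nid1). Over all 32851 stretches of this length, 22.8% held GGGCGG and 34.6% held CAGAC. Of the 3 shown, Lamb1 and Lama5 held both motifs, with 2 matches of GGGCGG and 1 of CAGAC each, and Nid1 held 1 match of GGGCGG. A match is a run of letters, and binding was not measured here.

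The libraries held 2816, 4067 and 8690 cell barcodes (control 1, control 2, mutant), with 22624711, 27814907 and 63505144 UMIs, and 2117, 3821 and 8111 cells passed the filters of at least 500 genes and at most 10% mitochondrial UMIs. Each cell was placed by marker genes, none of them among the 10: palatal mesenchyme held 1381, 2351 and 4478 cells, and a cell passing 2 gates of other types was left out. Endothelial (25, 97 and 270 cells) and glial cells (11, 32 and 182) were few in control 1. Control 1 mesenchyme also held more transcripts of other cell types. The muscle gene Actc1 stood at 63.0 CPM there against 9.95 and 2.44, and the epithelial keratin Krt15 at 32.3 CPM against 11.6 and 7.31. Whether these came from free RNA or from mixed cells was not tested. The libraries shared 18 to 49 barcodes by pair. Tgfbr1 itself stood at 55.5, 61.2 and 48.6 CPM in mesenchyme; these are tags of the 3′ end, not placed in the floxed part of the gene, so this level does not check the deletion.

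All levels below are CPM, UMIs of a gene per 1000000 UMIs summed over the cells of 1 type in 1 library, in the order control 1, control 2, mutant. Since 1 tag is counted per captured transcript, levels were not divided by gene length, and capture may still differ between genes. Intervals are exact 95% Poisson or Clopper-Pearson intervals and cover counting error only. Cell types were compared with palatal mesenchyme within libraries by edgeR's quasi-likelihood test over all genes with Benjamini-Hochberg adjustment, and an adjusted p under 0.05 is a call. Values after ± are standard errors of the fit, the size of the log2 difference over the square root of the test's F value. Their spread was estimated over all types in the fit, not from the library differences of 1 gene alone. Macrophages, which are not known to build basement membranes, show a level that free RNA can give. In them the 10 genes lay between 0 and 14.7 CPM, and 7 of 8 tested were lower than in mesenchyme. That range is not a ceiling, since erythroid cells reached 34.2 CPM for Nid1 and 17.1 CPM for Lama4, while Lamc1 reached only 8.55 CPM there.

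The prominent α chains were Lama4 in mesenchyme, vessels and glia alike, Lama2 in myogenic cells, and Lama5 with Lama3 in the epithelium. In macrophages, too, Lama4 led the few α-chain UMIs, with 5 of 5, 3 of 3 and 7 of 13. Lama2 levels in glial cells overlapped the myogenic ones, on few UMIs in the controls. The β and γ chains were shared more widely. The Lamb1 interval lay above that of macrophages in all 3 libraries for mesenchymal, epithelial, endothelial and glial cells and in 2 for myogenic cells, and the Lamc1 interval did so in 3 for endothelial cells, in 2 for mesenchymal, epithelial and glial cells and in 0 for myogenic cells.

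**Figure D1:**
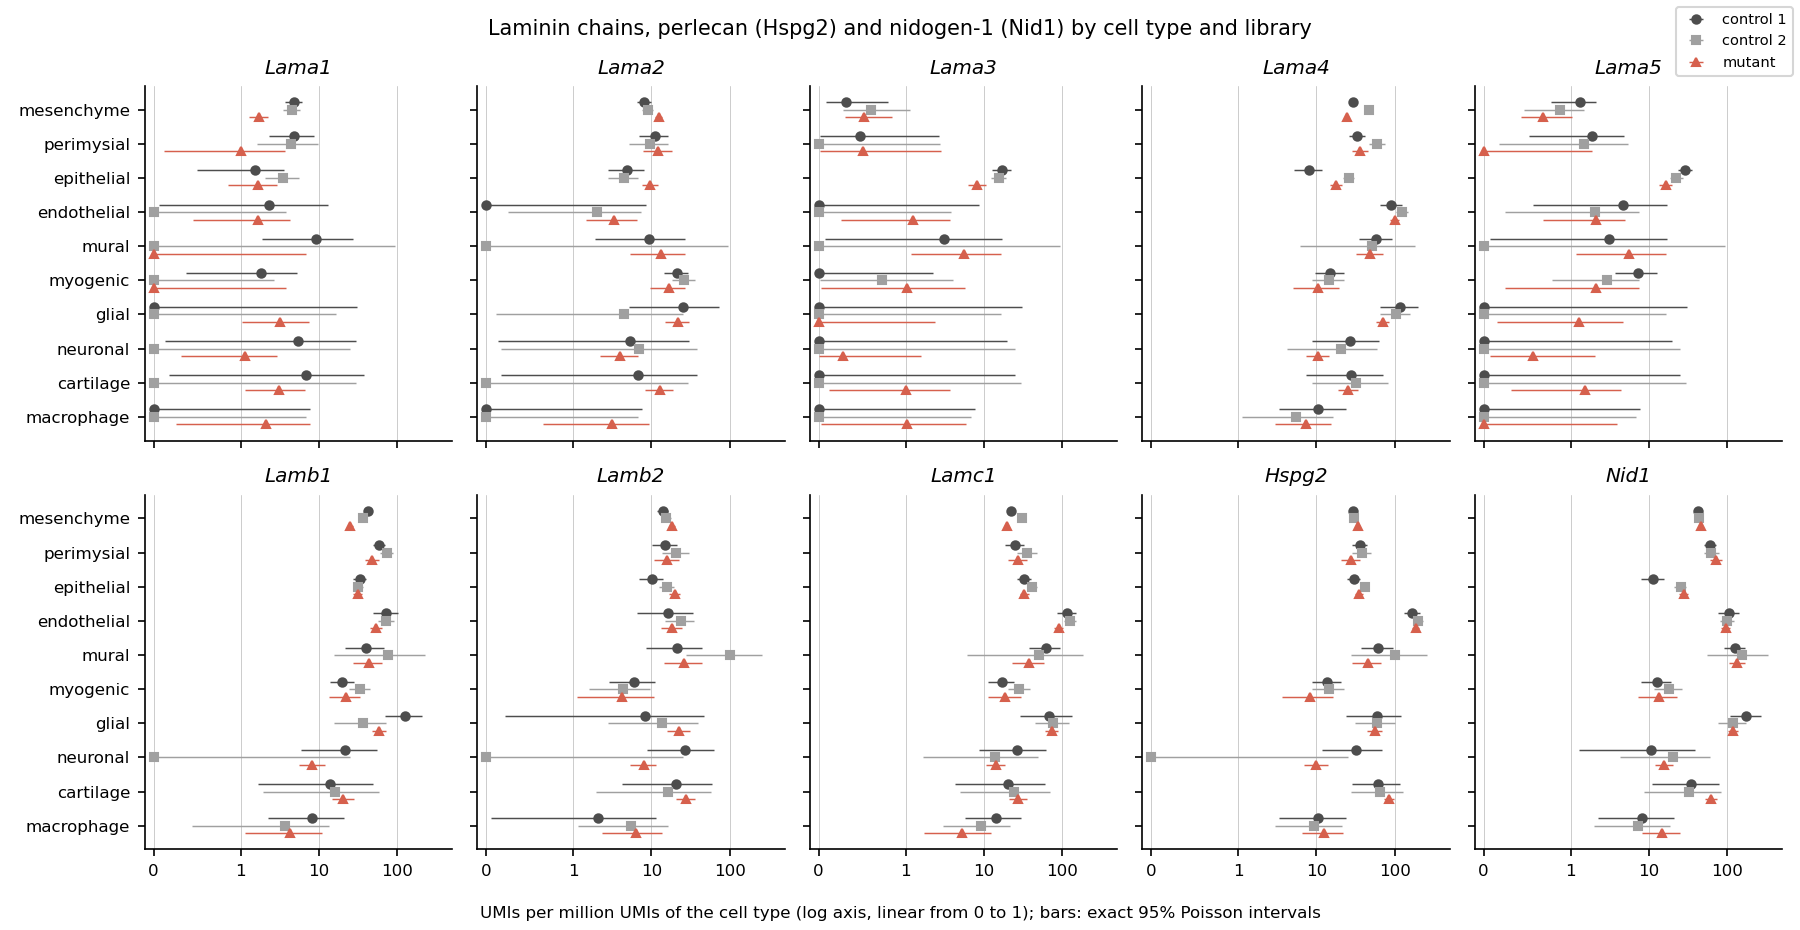
CPM of each gene (x axis, log scale above 1 and linear from 0 to 1) by cell type (y axis) and library (dark circle, control 1; grey square, control 2; red triangle, mutant), with exact 95% Poisson intervals. Lama3 and Lama5 stand out in epithelial cells, Lama4, Lamc1 and Hspg2 in endothelial cells, and the macrophage row shows a level that free RNA can give.

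Lama4 (ENSMUSG00000019846, chromosome 10 from 38965515 to 39110188, GRCm38 as all positions here), the α chain of vessel and mesenchymal laminins, was counted at 90.8, 124 and 99.9 CPM in endothelial cells. In glial cells it stood at 117, 104 and 70.4 CPM, a range that overlaps the endothelial one. Mural cells followed with 58.2, 50.8 and 48.7 CPM, on 2 UMIs in control 2, and then mesenchyme with 29.0, 46.3 and 24.6 CPM, below every value of these 3 types. Against mesenchyme the log2 difference was 1.74 ± 0.202 (SE, n = 3 libraries) in endothelial cells (edgeR adjusted p = 1.57e-08) and 1.34 ± 0.247 in glial cells (edgeR adjusted p = 0.000306). In the α-chain UMIs of endothelial cells Lama4 made up 92.9%, 96.8% and 92.2% (39 of 42, 121 of 125 and 238 of 258 UMIs).

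Lama2 (ENSMUSG00000019899, chromosome 10 from 26980036 to 27619758), the muscle laminin chain, stood at 21.0, 26.1 and 16.7 CPM in myogenic cells and at 8.02, 8.94 and 12.4 CPM in mesenchyme. The 2 ranges do not overlap, and the log2 difference was 1.51 ± 0.283 (SE, n = 3; edgeR adjusted p = 6.71e-05). Glial cells had Lama2 at 25.1, 4.51 and 21.8 CPM on 3, 1 and 34 UMIs, a range that overlaps the myogenic one. The glial difference from mesenchyme was not called (0.64 ± 0.382, edgeR adjusted p = 0.476). In endothelial cells Lama2 had 0, 2 and 8 UMIs. For the 0 in control 1 a floor of 3 UMIs is 6.99 CPM, and the exact upper bound lies above that. Lama2 was lower in endothelial cells than in mesenchyme, with a log2 difference of -2.04 ± 0.473 (edgeR adjusted p = 0.000808). Myogenic α-chain UMIs were 46.7%, 59.0% and 55.2% Lama2 and 33.3%, 32.8% and 34.5% Lama4, on 75, 61 and 29 UMIs; the Lama4 interval of myogenic cells lay above that of macrophages in 0 of 3 libraries. Their intervals for Lama2 overlap between the libraries (35.0 to 58.5%, 45.7 to 71.5% and 35.7 to 73.5%).

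Lama5 (ENSMUSG00000015647, chromosome 2 from 180176373 to 180225859), whose product forms the broadly found epithelial laminin, was counted at 29.3, 22.4 and 16.3 CPM in epithelial cells and at 1.32, 0.874 and 0.679 CPM in mesenchyme. Every epithelial library lay more than 10 times above its own mesenchyme, and the fitted log2 difference was 4.45 ± 0.296 (SE, n = 3; edgeR adjusted p = 1.05e-13). Lama5 passed the filter on low counts only with its epithelial counts, so its presence among the tested genes is no support. It was also called higher in myogenic cells (7.21, 2.90 and 2.08 CPM) and in endothelial cells (4.66, 2.05 and 2.10 CPM), with log2 differences of 2.36 and 1.56. These rest on 12, 4 and 2 and on 2, 2 and 5 UMIs; the endothelial call was lost when any 1 library was left out, and the myogenic call was lost with 1 more marker per gate (log2 difference 1.22).

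Lama3 (ENSMUSG00000024421, chromosome 18 from 12333819 to 12583013), the chain that anchors surface epithelia through hemidesmosomes, stood at 16.8, 15.5 and 8.23 CPM in epithelial cells and at 0.311, 0.605 and 0.524 CPM in mesenchyme. It missed the filter on low counts; without that filter its log2 difference was 4.51 ± 0.397 (edgeR adjusted p = 6.93e-28). Its usual β partner Lamb3, chosen by name after the values were seen, was counted in the same cells, at 18.3, 15.1 and 8.92 CPM in the epithelium against at most 0.617 CPM in mesenchyme.

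Lama1 (ENSMUSG00000032796, chromosome 17 from 67697259 to 67822647), an early embryonic α chain, was low everywhere, with 4.75, 4.51 and 1.70 CPM in mesenchyme. In no cell type did its interval clear that of macrophages in the same library. Macrophages had 0 Lama1 UMIs in each control, with exact upper bounds of 7.62 and 6.79 CPM. Control mesenchyme, on 61 and 67 UMIs, lay below these bounds, so neither control alone could tell the 2 types apart at this depth. The 2 controls were not tested together. Lama1 entered the test in the perimysial contrast alone, where the log2 difference was -0.17 ± 0.370.

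**Figure D2:**
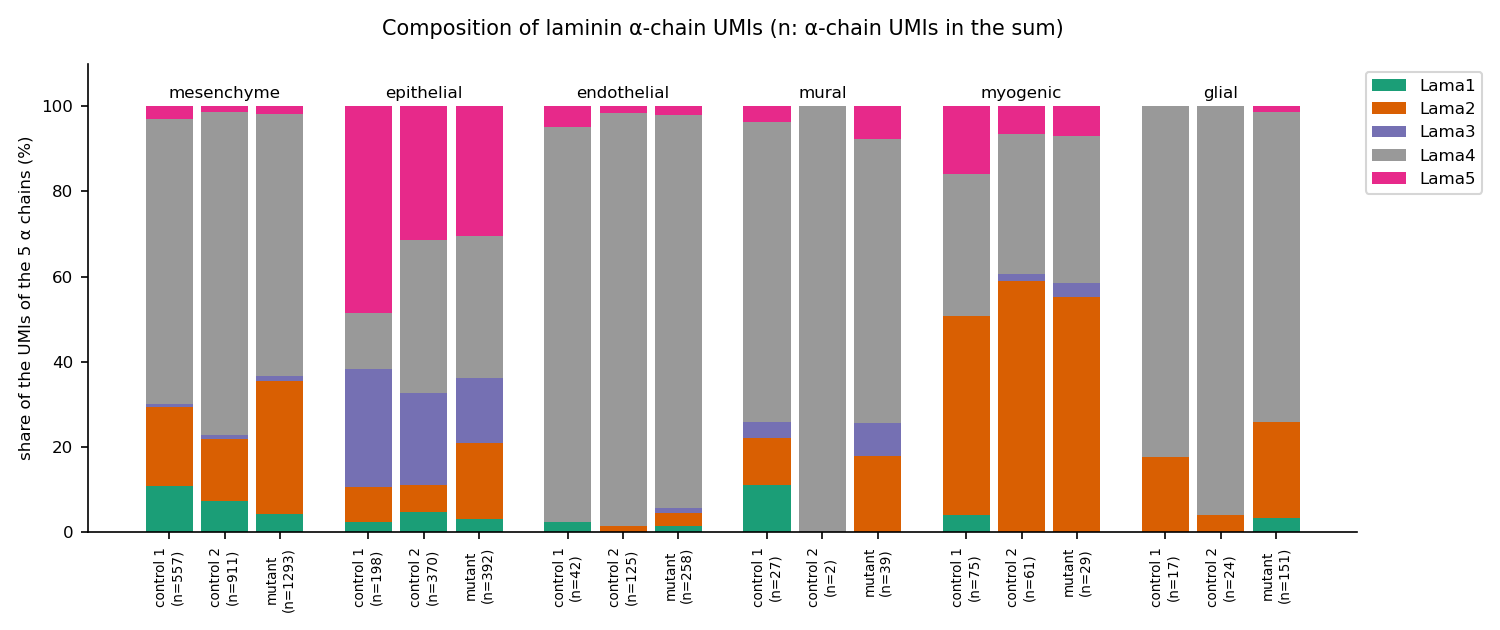
Share of each α chain (y axis, percent) among the UMIs of the 5 α chains, by cell type and library (x axis; n, α-chain UMIs in the sum). Lama4 makes up over 90% in endothelial cells, Lama2 is the largest share in myogenic cells, and Lama5 and Lama3 are prominent in the epithelium, where Lama4 takes 13.1%, 35.9% and 33.4%.

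Lamc1 (ENSMUSG00000026478, chromosome 1 from 153218922 to 153332786), the γ chain of most laminins, was counted at 114, 125 and 90.3 CPM in endothelial, 66.9, 76.6 and 73.6 CPM in glial, 32.7, 41.4 and 32.8 CPM in epithelial and 22.2, 30.5 and 19.5 CPM in mesenchymal cells. These 4 ranges do not overlap. Its log2 difference from mesenchyme was 2.22 ± 0.167 in endothelial cells (edgeR adjusted p = 5.86e-13), 1.61 ± 0.205 in glial cells (edgeR adjusted p = 5.86e-07) and 0.50 ± 0.155 in epithelial cells (edgeR adjusted p = 0.0156). The epithelial call was lost without control 2 (0.62) and without the mutant (0.46). With 1 more marker per gate, and without the library term, 1 of the 10 genes was called higher in epithelial cells in place of 2.

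Lamb1 (ENSMUSG00000002900, chromosome 12 from 31265234 to 31329644), the commoner β chain, stood at 72.2, 71.7 and 53.3 CPM in endothelial cells and at 42.0, 36.4 and 25.0 CPM in mesenchyme, a log2 difference of 0.98 ± 0.213 (edgeR adjusted p = 0.000394). Epithelial cells, with 33.3, 31.5 and 31.4 CPM, lay inside the mesenchymal range. In glial cells Lamb1 varied most between libraries, from 36.1 to 126 CPM on 8 to 92 UMIs, and its call there (0.90 ± 0.259, edgeR adjusted p = 0.0344) was lost without control 1 (0.83) and without the mutant (0.81). Lamb2 (ENSMUSG00000052911, chromosome 9 from 108479736 to 108490530), the β chain of vessel and synaptic laminins, was flatter: 13.9, 15.4 and 18.2 CPM in mesenchyme, 16.3, 23.5 and 18.1 CPM in endothelial cells and 6.01, 4.35 and 4.16 CPM in myogenic cells. The myogenic difference of -1.32 ± 0.348 was called (edgeR adjusted p = 0.00295), but not without control 2 (-1.22) or without the mutant (-1.16).

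Hspg2 (ENSMUSG00000028763, chromosome 4 from 137468769 to 137570630) was the most counted of the 10 genes in endothelial cells, at 168, 197 and 184 CPM against 29.2, 30.1 and 34.4 CPM in mesenchyme. All endothelial values lay over 4 times above the mesenchymal ones, and the log2 difference was 2.58 ± 0.172 (edgeR adjusted p = 2.49e-14). Cartilage cells, known for perlecan in their matrix, had 61.4, 64.3 and 85.1 CPM, on only 9 and 8 UMIs in the controls. Myogenic cells were lower than mesenchyme, on 23, 20 and 8 UMIs, with control 1 at 13.8 CPM, control 2 slightly above it and the mutant at 8.33 CPM (log2 difference -0.99 ± 0.239, edgeR adjusted p = 0.00124). The mutant lay below both myogenic controls there, by -0.77 on the log2 scale from their mean.

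Nid1 (ENSMUSG00000005397, chromosome 13 from 13437551 to 13512269) stood at 176, 117 and 119 CPM in glial, 105, 99.3 and 95.7 CPM in endothelial and 43.0, 43.6 and 45.8 CPM in mesenchymal cells, with no overlap between the 3. The log2 difference from mesenchyme was 1.38 ± 0.244 in glial cells (edgeR adjusted p = 0.000171) and 1.17 ± 0.213 in endothelial cells (edgeR adjusted p = 4.07e-05). In myogenic cells it was lower, at 12.6, 18.1 and 13.5 CPM (-1.25 ± 0.271, edgeR adjusted p = 0.000385). Mural cells, the pericytes and smooth muscle around vessels, numbered 24, 7 and 53, too few in control 2 for the set minimum of 10. Nid1 was counted there at 126, 152 and 135 CPM; with the minimum lowered to 5 cells, a choice made after seeing the data, Nid1 (1.52 ± 0.253, edgeR adjusted p = 0.000169) and Lamc1 (1.04 ± 0.270, edgeR adjusted p = 0.0344) were called higher than in mesenchyme, where 1.37% of all tested genes were called higher and 0.0752% lower.

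Counted together, endothelial cells were higher than mesenchyme for 6 of 8 tested genes (Hspg2, Lamc1, Lama4, Lama5, Nid1 and Lamb1) and lower for 1 (Lama2), where 17.1% of all tested genes were called higher and 18.7% lower. The median log2 difference of the 8 genes was 1.37, beside -0.07 for all genes tested. Glial cells were higher for 4 of 8 (Lamc1, Nid1, Lama4 and Lamb1), where 3.45% of all genes were called higher and 1.22% lower. Epithelial cells were higher for 2 (Lama5 and Lamc1) and lower for 2 (Lama4 and Nid1) of 8, beside 11.3% and 12.1% of all genes. Myogenic cells were higher for 2 (Lama2 and Lama5) and lower for 4 (Hspg2, Lama4, Lamb2 and Nid1), beside 17.6% and 20.2%, with the median of all genes itself at -0.12; the Lama4 call (-0.95) was lost without control 2 (-0.71). The 7 lower in macrophages were all tested genes but Lama5, beside 22.2% of genes called higher and 22.7% lower there; of these calls, Lamc1 and Lamb2 were lost without control 2 or without the mutant. Lama1 and Lama3 did not pass the filter on low counts in these contrasts, and Lama5 passed it with its epithelial counts.

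**Figure D3:**
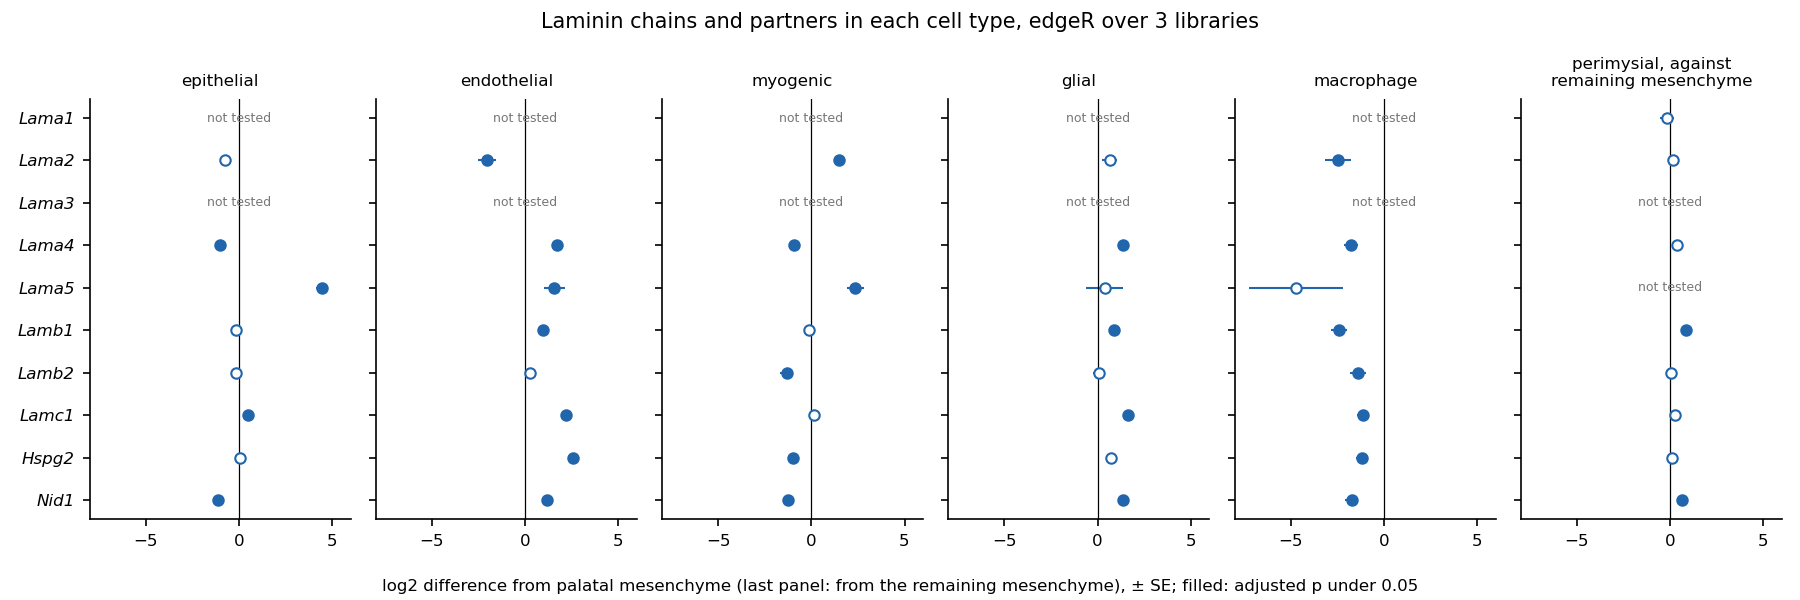
Log2 difference (x axis, ± SE, n = 3 libraries) of each gene (y axis) in 5 cell types against palatal mesenchyme and in perimysial cells against the remaining mesenchyme. Filled points have an edgeR adjusted p under 0.05, such as Lama5 in epithelial cells (4.45) and Hspg2 in endothelial cells (2.58).

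Epithelial sums also held mesenchymal transcripts. Col1a1, the fibrillar collagen of mesenchyme, stood at 311, 823 and 991 CPM in them, lowest in control 1, and Lama4 (7.94, 25.7 and 18.0 CPM) and Nid1 (11.3, 25.3 and 27.8 CPM) were likewise lowest in control 1. When cells that also passed the mesenchyme gate were left out, a choice made after seeing the data, 99, 133 and 197 of 196, 359 and 524 epithelial cells remained and Col1a1 fell to 116, 237 and 155 CPM. Lama4 then stood at 1.68, 3.65 and 2.20 CPM and Lama2 at 1.68, 0.912 and 1.47 CPM, while Lama5 (33.5, 24.6 and 20.5 CPM), Lamb1 (29.3, 26.5 and 32.2 CPM), Lamc1 (32.7, 38.3 and 33.0 CPM) and Hspg2 (32.7, 32.8 and 26.4 CPM) kept levels like those above. In that fit Lama4 differed from mesenchyme by -3.73 ± 0.356 (edgeR adjusted p = 2.08e-11) and Nid1 by -3.04 ± 0.317 (edgeR adjusted p = 2.03e-10), and Lama2 (-2.85) and Lamb2 (-1.04) were called lower as well. In these cells, which still held Col1a1, Lama2 and Lama4 had 4 UMIs or fewer per library. Col1a1 was also counted in glial (310, 509 and 1246 CPM) and mural sums (1158, 711 and 1735 CPM), beside 1627, 1724 and 1689 CPM in mesenchyme. The part of mesenchymal transcripts in glial and mural levels was not tested.

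Perimysial cells, the mesenchyme around the forming muscles, were gated by 2 or more of Hic1, Ebf2, Agtr2, Foxd1 and Meox1 and numbered 254, 217 and 300. Lamb1 stood at 59.1, 73.1 and 47.5 CPM in them and at 38.7, 32.8 and 23.6 CPM in the remaining mesenchyme, higher in each of the 3 libraries (0.61, 1.16 and 1.01 on the log2 scale). Nid1 stood at 61.0, 62.8 and 72.3 CPM against 39.4, 41.7 and 44.0 CPM, again higher in each (0.63, 0.59 and 0.72). The fitted log2 differences were 0.87 ± 0.119 for Lamb1 (edgeR adjusted p = 7.01e-05) and 0.61 ± 0.098 for Nid1 (edgeR adjusted p = 0.000383). They were 2 of 8 tested genes called higher, where 3.45% of all genes were called higher and 3.03% lower. Lama4, at 33.3, 59.8 and 36.4 CPM against 28.1, 45.0 and 23.8, missed the threshold (0.39 ± 0.119, edgeR adjusted p = 0.0599). In a fit without the library term, which called 0 of all 12431 genes, Lamb1 stood at 0.88 and Nid1 at 0.61, and after thinning every cell to 2000 UMIs before gating the Nid1 difference was -0.13.

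Within the myogenic cells, differentiating myocytes (82, 69 and 56 cells) were compared with progenitors (13, 53 and 49 cells). Lamb1 stood at 18.7, 16.6 and 4.51 CPM in myocytes and 26.2, 54.6 and 42.7 CPM in progenitors, and Lamc1 at 16.7, 15.1 and 9.01 CPM and 21.0, 44.0 and 29.2 CPM. Both were lower in myocytes in every library, with log2 differences of -1.46 ± 0.370 (edgeR adjusted p = 0.00184) and -1.10 ± 0.396 (edgeR adjusted p = 0.0463), where 8.67% of all genes were called higher and 5.47% lower. Lama2, the only other one of the 10 genes that passed the filter, did not differ beyond its error (0.51 ± 0.423, edgeR adjusted p = 0.501). These counts are small, 5 to 31 UMIs in progenitors for Lamb1 and 2 to 27 in myocytes, and neither gene was called without control 2 or without the mutant.

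Other genes of the basement membrane and the laminin receptors were counted in the same contrasts. In endothelial cells 9 of 18 tested basement membrane genes were higher and 4 lower, led by the collagen genes Col15a1 (log2 difference 6.38) and Col18a1 (6.19), while Frem1 (-3.14) and Fras1 (-2.32), matrix proteins of the epithelial border, were lowest. Of 11 tested receptors, 5 were higher and 2 lower there, where 17.1% of all tested genes were called higher and 18.7% lower. The 4 of 18 and 2 of 11 lower lay near that 18.7%. In epithelial cells 9 of 18 basement membrane genes and 7 of 11 receptors were higher, and 2 and 1 lower, beside 11.3% and 12.1% of all genes. Both counts of lower genes lay near that 12.1%. The hemidesmosome collagen Col17a1 (4.47) and the hemidesmosome integrin chain Itgb4 (4.23) were among the highest, and Nid2 (-1.38) and Frem1 (-0.98) at the bottom. In glial cells 5 of 18 basement membrane genes and 7 of 11 receptors were higher and 0 lower, beside 3.45% and 1.22% of all genes. They ran from Col18a1 (4.42) and the adhesion receptor Mcam (3.59) down to the collagen IV genes Col4a1 (1.13) and Col4a2 (0.93). In myogenic cells 3 of 18 basement membrane genes were higher and 6 lower, and 3 of 11 receptors were higher and 2 lower. Of all genes tested there, 17.6% were called higher and 20.2% lower. The 3 of 18 higher and the 2 of 11 lower lay near these shares. The α5-laminin receptor Bcam (2.65) and Frem2 (2.58) led, and Col4a5 (-1.91) and Hmcn1 (-1.85) were lowest. In macrophages 11 of 18 basement membrane genes were lower, Fras1 most (-2.49), and of 11 receptors 2 were higher and 3 lower. Of all genes, 22.2% were called higher and 22.7% lower there. Both receptor counts lay near these shares. The integrin chain Itga6 (3.73) and the syndecan Sdc4 (2.15) were higher, and the integrin chain Itga1 was lower (-2.33). In perimysial cells 3 of 16 basement membrane genes were higher and 3 lower, and of 10 receptors 0 were higher and 1 lower. Of all genes, 3.45% were called higher and 3.03% lower there. Nid2 (0.95), the second nidogen, and Fbln1 (0.51) were the highest of the 3 called higher, and Col7a1 (-1.87) and Npnt (-1.03) the lowest of the 3 called lower. In myocytes Bcam was higher (2.08) and Col4a1 (-1.35) and Hmcn1 (-1.16) were lower than in progenitors. These were 1 of 5 tested receptors and 2 of 6 basement membrane genes, beside 8.67% of all genes called higher and 5.47% lower. All of these named calls are edgeR calls at the threshold given above.

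Patterns were also compared across the 27 sums of 9 cell types in 3 libraries, as Pearson correlations of log2(CPM + 1) over 10922 genes; the points of 1 library share its depth and free RNA, and the values are descriptions. Lama4 and Lamc1 were each other's closest gene (r = 0.90). Lama3 lay closest to the epithelial genes Crb3 (0.96), Grhl2 (0.956) and Rnf43 (0.954), and Lama5 to Mpzl2 (0.866), Cldn4 (0.861) and Adam28 (0.857). Hspg2 lay closest to Ptprm (0.886), Nid1 to Rftn2 (0.867), Lamb1 to Slc20a2 (0.869), Lamb2 to Rnf215 (0.925), Lama2 to Loxl2 (0.753) and Lama1 to Penk (0.769).

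A single cell rarely showed a complete set of chains. An α, a β and Lamc1 UMI together were found in 32.0%, 25.8% and 15.9% of endothelial cells, in 14.8%, 17.5% and 11.6% of epithelial cells and in 3.91%, 2.42% and 2.50% of mesenchymal cells, beside 5.26%, 0% (0 of 77 cells, with an upper bound of 4.68%) and 1.42% of macrophages. Median UMIs per cell were 9843, 7163 and 6090 in endothelial, 13950, 11696 and 10930 in epithelial, 8040, 5279 and 5575 in mesenchymal cells and 11018, 6142 and 5691 in macrophages. After thinning each cell to 2000 UMIs, at most 1.06% of any type showed the 3 together, so co-detection could not be compared at equal depth. For Lama4 alone, thinned shares were 10.0%, 16.0% and 14.7% of endothelial cells (48.0%, 55.7% and 43.7% before thinning) and 2.70%, 2.78% and 1.44% of macrophages (7.89%, 3.90% and 4.26%); 5, 3 and 19 endothelial cells and 1, 5 and 2 macrophages were shallower and left out.

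The mutant is 1 library, so its values were set beside both controls with counting intervals and no test. A gene was counted where the mutant lay outside both controls and differed from the mean of their log2 values by more than the gap between them and by at least 1.5-fold. All log2 differences of the mutant below are from that mean. In mesenchyme 8 of the 10 genes had at least 20 UMIs in each control, and Lama1 and Lamb1 were counted, both lower. Over all 12313 genes with such counts, 8.35% were counted lower and 2.05% higher, so 2 of 8 lower is read against a background of 8.35%.

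Lama1 stood at 4.75 CPM (3.63 to 6.10) and 4.51 CPM (3.49 to 5.72) in the controls and at 1.70 CPM (1.28 to 2.21) in the mutant, on 61, 67 and 55 UMIs. The log2 difference was -1.45, with a gap of 0.08 between the controls. Lamb1 stood at 42.0 CPM (38.5 to 45.7), 36.4 CPM (33.4 to 39.6) and 25.0 CPM (23.4 to 26.8), a log2 difference of -0.64 with a control gap of 0.21. Its mutant interval lies below both control intervals. Rescaling the libraries with TMM factors raised all mutant differences by 0.131, and Lamb1 then no longer reached 1.5-fold while Lama2 did, upward (0.69); the same swap came with 1 more marker per gate (Lama2 0.59).

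Lama2 was the α chain that stood higher in the mutant mesenchyme, at 12.4 CPM (11.3 to 13.7) against 8.02 and 8.94 CPM, a log2 difference of 0.55 that falls short of 1.5-fold. Lamb2 (13.9, 15.4 and 18.2 CPM) and Hspg2 (29.2, 30.1 and 34.4 CPM) also lay above both controls by less than that. Lama4, at 29.0, 46.3 and 24.6 CPM, lay below both controls, with a log2 difference of -0.58 from their mean where the controls themselves differ by 0.68. Lamc1, at 22.2, 30.5 and 19.5 CPM, likewise differed by less than its control gap of 0.46. Within midline mesenchyme, however, Lamc1 was counted lower (23.5, 27.5 and 13.2 CPM, log2 difference -0.94, control gap 0.22). Lama1 was also counted lower there (8.12, 5.08 and 3.46 CPM, log2 difference -0.89, control gap 0.68). Its mutant value stood nearer to control 2 than the controls stood to each other. In the mesenchyme without perimysial cells Lama2 was counted higher (7.44, 8.88 and 12.4 CPM, log2 difference 0.62). The share over all genes was not computed in these groups, so these counts have no background. Nid1, at 43.0, 43.6 and 45.8 CPM, differed by 0.08 on the log2 scale.

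**Figure D4:**
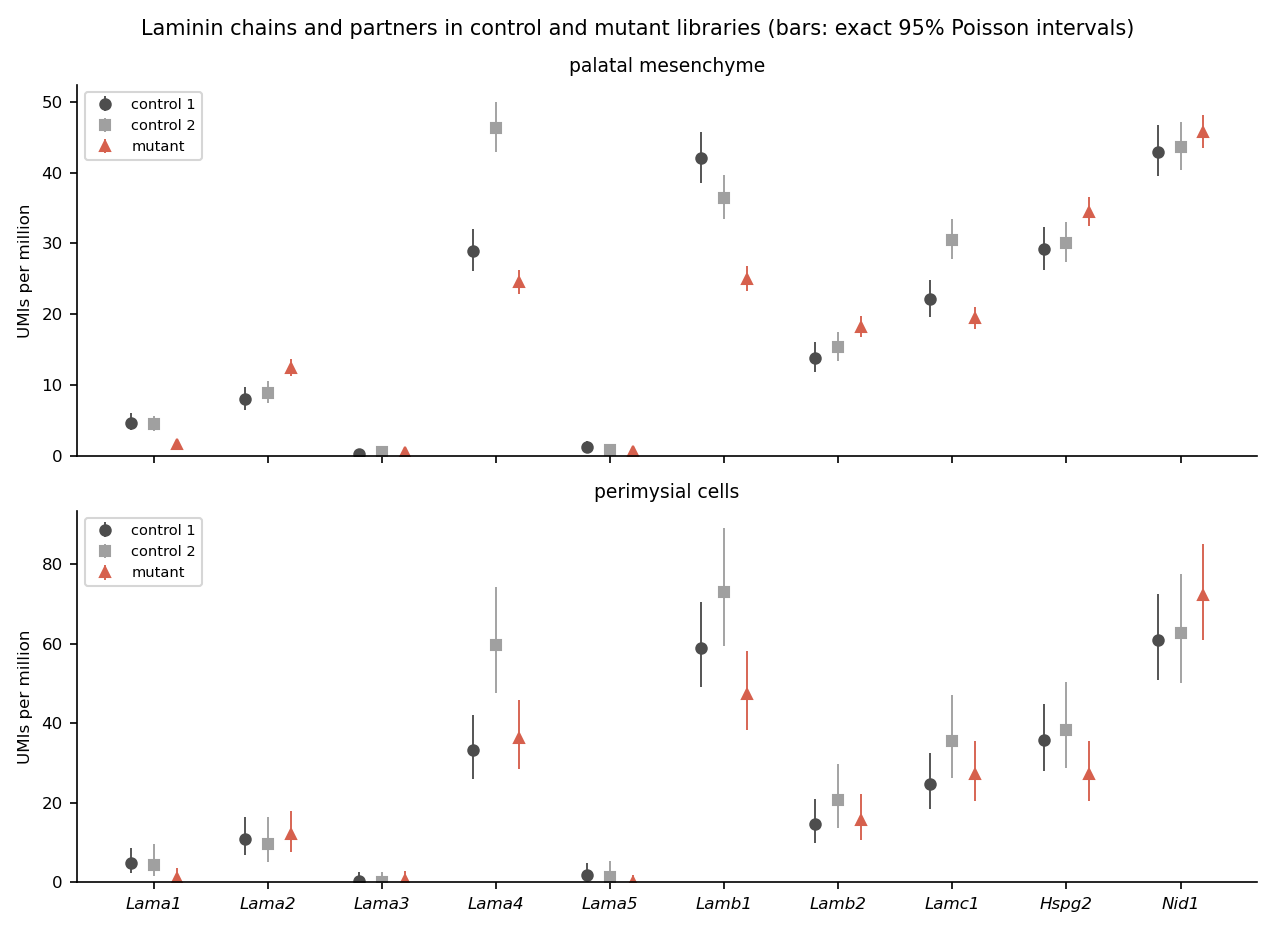
CPM (y axis) of each gene (x axis) in control 1, control 2 and the mutant, in palatal mesenchyme (top) and perimysial cells (bottom), with exact 95% Poisson intervals. In mesenchyme the mutant point lies below both control intervals for Lama1, Lamb1, Lama4 and, narrowly, Lamc1, and above both control points for Lama2. For Lama4 (29.0 and 46.3 in the controls) and Lamc1 the controls differ by more than the mutant does from their mean.

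Shares between chains do not depend on the scaling of the libraries. Lamb1 made up 75.2% (71.9 to 78.3) and 70.3% (66.9 to 73.5) of Lamb1 plus Lamb2 UMIs in control mesenchyme and 57.9% (55.2 to 60.5) in the mutant. The mutant was below both controls in each of the 5 groups of mesenchymal cells, with 74.1%, 73.3% and 59.7% in midline mesenchyme, 60.8%, 60.0% and 43.6% in osteogenic cells and 80.0%, 78.0% and 75.2% in perimysial cells. Within each of the 5 groups the mutant interval overlapped that of at least 1 control. Outside the mesenchyme the Lamb1 share was also lowest in the mutant in epithelial (76.8%, 66.8% and 61.4%) and endothelial cells (81.6%, 75.3% and 74.7%). The same held in glial cells (93.75%, 72.7% and 72.4%), while in myogenic cells the mutant lay between the controls (76.7%, 88.5% and 84.0%). Lama2 made up 18.5% (15.35 to 21.97) and 14.6% (12.4 to 17.1) of α-chain UMIs in control mesenchyme and 31.2% (28.6 to 33.8) in the mutant, and stood at 24.2% against 21.3% and 12.7% in perimysial cells, again with overlapping intervals. In epithelial cells the Lama2 share was also highest in the mutant (8.08%, 6.22% and 17.9%). In myogenic cells it lay between the controls (46.7%, 59.0% and 55.2%). Whether these shifts are particular to mesenchyme was not tested. The Lama1 share fell from 11.0% and 7.36% to 4.25%. In midline mesenchyme, where Lama1 was counted lower by CPM, its mutant share lay between the controls (19.4%, 8.56% and 9.39%). In perimysial cells it lay below both (9.26%, 5.88% and 2.02%). The makeup of the mesenchyme also differed, with 120, 38 and 456 osteogenic and 254, 217 and 300 perimysial cells among 1381, 2351 and 4478 cells. As a share, osteogenic cells were fewest in control 2 and perimysial cells fewest in the mutant. The part of this makeup in the pooled shares was not tested.

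**Figure D5:**
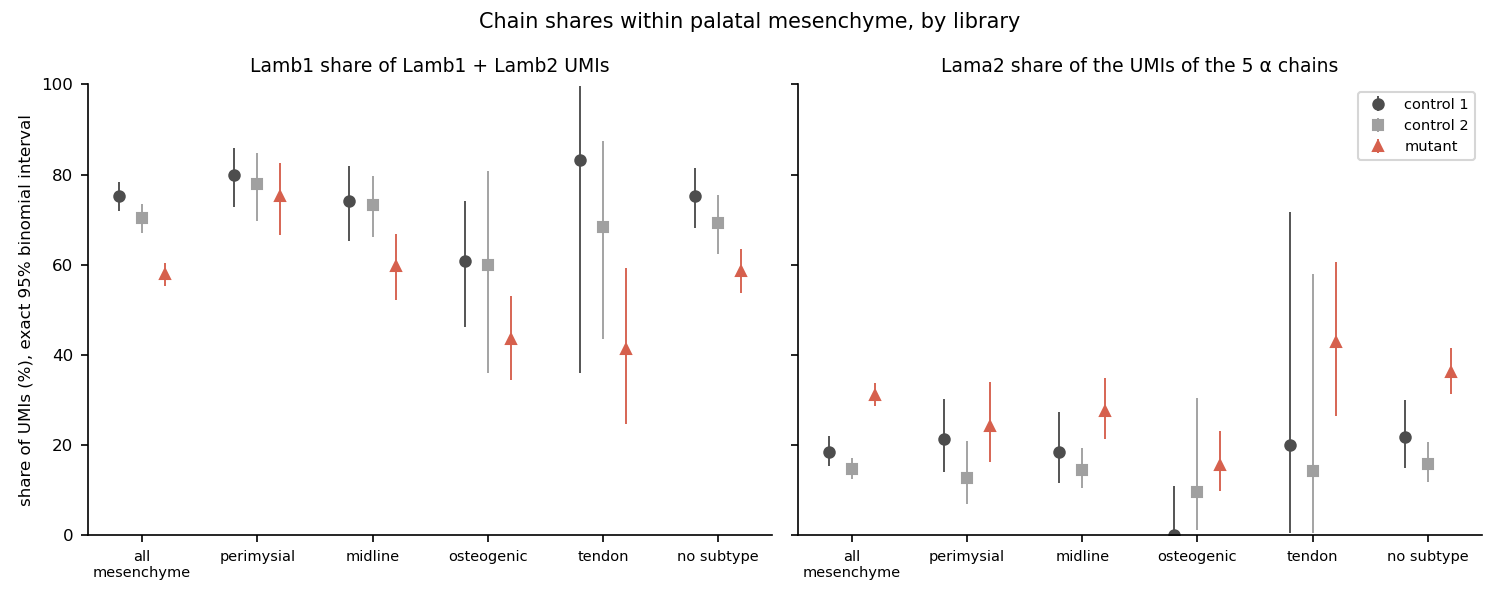
Share of Lamb1 among Lamb1 and Lamb2 UMIs (left) and of Lama2 among α-chain UMIs (right), in percent (y axis) with exact 95% binomial intervals, in all mesenchyme and in 5 groups of mesenchymal cells (x axis) by library. In all mesenchyme the mutant (57.9% and 31.2%) lies outside both control intervals, while in perimysial cells the intervals overlap.

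In perimysial cells 6 of the 10 genes had at least 20 UMIs in each control, and none of the 6 was counted, where 8.13% of 7303 genes were counted lower and 1.93% higher. Lamb1 (59.1, 73.1 and 47.5 CPM; log2 difference -0.47) and Hspg2 (35.7, 38.4 and 27.3 CPM; -0.44) lay below both controls by less than 1.5-fold. Lama4, at 33.3 CPM (26.0 to 42.1), 59.8 CPM (47.5 to 74.4) and 36.4 CPM (28.5 to 45.8), lay between the controls (-0.30, control gap 0.84). With 1 more marker per gate, Lama4 (-0.79, control gap 0.23) and Lamb1 (-0.70, control gap 0.06) were both counted lower. With cells thinned to 2000 UMIs before gating Lama4 differed by -1.64 (control gap 0.94), on fewer than 20 UMIs in each control, too few to be counted. With a gate of both Hic1 and Ebf2, Lama4 (-0.03, control gap 0.64) and Lamb1 (-0.40, control gap 0.94) lay between the controls. Lama4 also lay between them with TMM factors (-0.19) and as a mean over cells (-0.10). Lama5 had no UMI in the mutant perimysial cells, which allows up to 1.87 CPM, against 4 and 2 UMIs in the controls, a difference not detectable at this depth.

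In epithelial cells, where Osr2-Cre is not described to act in the sources used here, Lama3 (16.8, 15.5 and 8.23 CPM; log2 difference -0.97) and Lama5 (29.3, 22.4 and 16.3 CPM; -0.65) were counted lower in the mutant and Lamb2 (10.1, 15.7 and 19.8 CPM; 0.65, control gap 0.64) higher, 3 of 8 genes, where 8.94% of all genes were counted lower and 1.65% higher. Lamb2 stood nearer to control 2 than the controls stood to each other. The partner Lamb3 moved alongside Lama3, at 18.3, 15.1 and 8.92 CPM. Col1a1 in these sums was 311, 823 and 991 CPM. Among epithelial keratins, Krt15 stood at 850, 385 and 245 CPM and was lowest in the mutant. Krt14 stood at 424, 540 and 627 CPM and was highest there. The part of these genes in the differences was not tested. Without the epithelial cells that also passed the mesenchyme gate, Lama3 stood at 17.6, 28.3 and 7.32 CPM (-1.61), Lama5 at 33.5, 24.6 and 20.5 CPM (-0.49) and Lamb2 at 4.19, 10.9 and 8.79 CPM, between the controls.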

How the data were processed

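Soft palate cells of 2 control and 1 mutant E14.5 mouse libraries (10x 3′ v2) were analysed from the deposited filtered matrices of raw UMI counts, 1 per gene and cell, Cell Ranger 4.0.0 output of the authors per the file headers, while the submitters' processing notes name Cell Ranger 3.1.0 and mm10. Cells under 500 genes or over 10% mitochondrial UMIs were dropped, and the rest were placed in types by counts of marker genes (3 or more for most types, 2 for mesenchyme), and counts were summed per type and library. Cells passing 2 gates of other types were left out in place of a doublet caller. Types with at least 10 cells in every library were tested with edgeR 4.0.16 (TMM factors, filterByExpr, library as block, gate genes left out, R 4.3.3), adjusted over all genes; DESeq2 1.42.0 was an alternative. The fit was tested on simulated data. Members and gene lists were chosen with earlier results of these data known. All 10 genes are named; of the other lists, the 2 called genes with the largest and the 2 with the smallest log2 difference per contrast, plus Lamb3 in the epithelium; 1 gene this rule names is not reported here. Libraries' replicate numbers were not used to pair samples.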

Additional observations from a re-analysis of the deposited data

Results flagged for a closer look

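In all, 3 log2 differences between cell types had the opposite sign in the mutant to both controls with at least 20 UMIs in every sum, and the differences between genotypes were not tested. Lamb1 in epithelial cells minus mesenchyme was -0.34 and -0.21 in the controls and 0.33 in the mutant, where its epithelial level (33.3, 31.5 and 31.4 CPM) moved less than its mesenchymal level (42.0, 36.4 and 25.0 CPM). Lamb2 in perimysial cells minus the remaining mesenchyme was 0.11 and 0.48 in the controls and -0.23 in the mutant, on 31, 28 and 31 perimysial UMIs. Hspg2 in the same comparison was 0.36 and 0.39 in the controls and -0.35 in the mutant, with 35.7, 38.4 and 27.3 CPM in perimysial cells and 27.9, 29.3 and 34.9 CPM in the remaining mesenchyme.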

How the results depend on the processing

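With edgeR's test, cells thinned to 2000 UMIs before they were gated, so that fewer cells also passed the gates, left 4 of the 10 genes tested by type (8 without thinning) and 6 in perimysial cells (8), of which 2 were called in epithelial (4), 4 in endothelial (7), 2 in myogenic (6), 3 in macrophage (7) and 0 in perimysial cells (2). Then 0 genes were counted in the mutant mesenchyme (2), as Lama1 still differed by -1.11 but had under 20 UMIs in the controls and Lamb1 differed by -0.45, under 1.5-fold; the Lama4 difference of the mutant in perimysial cells was -1.64 (-0.30), and that of Nid1 between perimysial and remaining mesenchyme turned to -0.133 (0.61). Without the library term 0 of the 10 genes, and 0 of all 12431, were called in perimysial cells and 1 in myocytes (2). The myocyte comparison gave 0 by DESeq2, 1 without the filter on low counts, 0 with 1 more marker per gate (0 tested), 1 without cells that also pass the mesenchyme gate (1 tested), and 0 to 2 when 1 library was left out. With 1 more marker per gate, 2 genes (Lama4 and Lamb1) were counted lower in the mutant perimysial cells (0). With a gate of both Hic1 and Ebf2, the Lama4 difference there was -0.03. The cause of the changes other than by thinning was not tested. For single genes, 38 alternative values lost their call, 10 gained one and 1 changed direction (Nid1, above), while 540 kept both; glial cells without those passing the mesenchyme gate were too few to fit. No paired analysis was possible because the mutant group has 1 library, so the genotypes share fewer than 2 replicate numbers. Counts of 0 to 20 UMIs limit Lama1, Lama3 and Lama5 outside the types where they are named.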

Other observations

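Neuronal and cartilage cells entered no contrast and were few in the controls (16 and 13 neuronal, 11 and 10 cartilage cells). In the mutant, neuronal cells (380) had Lama4 at 10.5, Lamc1 at 14.2 and Nid1 at 15.7 CPM, beside 7.37, 5.26 and 14.7 CPM in its macrophages. Mutant cartilage cells (184) had Lama4 at 25.5, Lamb2 at 27.5, Lamc1 at 27.5, Nid1 at 62.1 and Hspg2 at 85.1 CPM. Lamb1 made up 42.6% (32.4 to 53.2) of their Lamb1 and Lamb2 UMIs, beside 57.9% (55.2 to 60.5) in the mutant mesenchyme. Erythroid cells, which carry mostly globin RNA, had Nid1 at 0, 21.0 and 34.2 CPM on 0, 3 and 16 UMIs, and the 0 allows up to 13.6 CPM.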
